A study of Caenorhabditis briggsae with 9 samples.

Results

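Whole larvae of the nematode Caenorhabditis briggsae that carry the allele gu167 of Cbr-htz-1, a gene also named Cbr-ivp-2, were compared with the wild-type isolate AF16 across all genes. The comparison took 6 of the 9 libraries of the series, 3 from gu167 and 3 from AF16. The other 3 libraries came from larvae with the allele gu163 of Cbr-spr-4, also named Cbr-ivp-1. They entered the choice of genes to test, the scaling and the estimate of the spread. They also served to test where the mutants differ from each other. All larvae were in stage L3, were grown at 20 degrees and were collected shortly before the vulval precursor cells divide. No agent was given to any group. The labels do not say what kind of change gu167 is, or how closely the mutant background matches AF16. RNA was total RNA of whole animals, depleted of ribosomal RNA. Fewer cells of a type and less RNA per cell can therefore not be told apart. The replicates are called independent and biological in the labels.

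Cbr-htz-1 encodes the histone variant H2A.Z, which replaces H2A in a share of nucleosomes, often near the starts of genes. In C. elegans, H2A.Z is placed by a remodelling complex of the SWR1 type, and genes of that complex and of related acetyltransferase complexes act with the SynMuv genes. SynMuv genes keep the EGF ligand gene lin-3 low outside its normal source. LIN-3 is the signal from the gonadal anchor cell that starts vulval development through the EGF receptor LET-23 and the Ras and MAP kinase cascade. Several SynMuv and DREAM proteins also keep germline genes silent in somatic cells of C. elegans.

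Counts in the 6 libraries summed to between 8294524 and 14095189 per library. Of 22922 genes in the counts, 12507 were tested with edgeR's quasi-likelihood test, and 4924 of those carried a symbol. Levels are given in CPM, counts per 1000000 of the TMM-scaled library total, and differences as log2 fold change ± SE. A level of 3 counts lay between 0.189 and 0.378 CPM in these 6 libraries. AF16 replicate 3 stood apart, with the lowest TMM factor (0.746), whereas gu167 replicate 3 had the highest (1.202). On the first principal component of the 6 libraries, which held 50.3% of the variance, AF16 replicate 3 lay at 64.6 and the other AF16 libraries at 13.1 and 15.4. The gu167 libraries lay at -15.02, -30.2 and -47.9, with replicate 3 the farthest out.

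By edgeR on all libraries, far more genes rose than fell in gu167 larvae. At an adjusted p under 0.05, edgeR called 262 genes (2.09% of those tested), of which 246 rose (1.97%) and 16 fell (0.128%). In each of the 262 genes the 3 gu167 libraries lay wholly above or wholly below the 3 AF16 libraries. The calls rest on the same values, so this separation adds no support to them. Many rises started from very low levels. In 120 of the 246 the AF16 mean was under 1 CPM, in 19 the AF16 libraries held 3 counts or fewer in all, and in 2 they held none. The median log2 fold change over all genes tested was -0.02. At an unadjusted p under 0.05, 1016 genes were higher and 859 lower, together 15% of those tested. By DESeq2, 411 genes were called higher and 225 lower.

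The 246 rises were 148 without gu167 replicate 2 and 157 without gu167 replicate 3, and 141 of them were called in all 6 fits that left out 1 AF16 or gu167 library. The falls were less settled. There were 145 without AF16 replicate 3, 85 without AF16 replicate 2 and 225 by DESeq2. Their number was 8 without AF16 replicate 1, 6, 4 and 2 without gu167 replicates 1, 2 and 3, and 5 without gu163 replicate 3. The share of calls that were rises was 93.9%, against 64.6% by DESeq2, 67.6% without AF16 replicate 2 and 60.5% without AF16 replicate 3. Of the falls, 2 were called in all 6 fits, Cbr-cdr-2 and Cbr-grl-10.

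**Figure D1:**
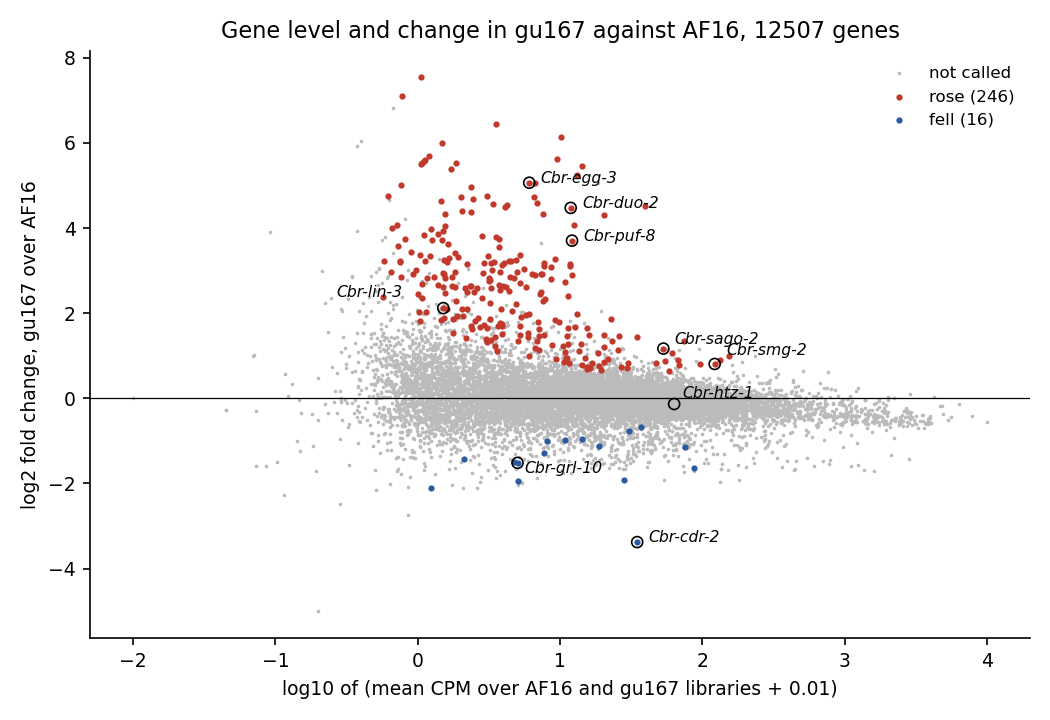
Each point is 1 of 12507 genes, with its log10 mean CPM over the AF16 and gu167 libraries (0.01 CPM added) on the x axis and its log2 fold change, gu167 over AF16, on the y axis. The 246 genes that rose are red, the 16 that fell are blue, and circled genes are named in the text.

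Cbr-htz-1 (CBG01691) itself stood at 60.6, 59.9 and 78.7 CPM in AF16 and at 61.0, 62.8 and 57.5 in gu167. The strains overlapped, and the high value was that of AF16 replicate 3. The log2 fold change was -0.13 ± 0.15 (edgeR adjusted p = 0.689, exact two-sided permutation p = 0.6), and without AF16 replicate 3 it was 0.0014. Because the kind of allele is not given, the transcript level does not check the label. Cbr-spr-4 (CBG11849), a zinc-finger gene that in C. elegans was found as a suppressor of presenilin mutants, stood at 88.0, 118 and 120.0 CPM in AF16 and 152, 156 and 144 in gu167. All gu167 libraries were above all AF16 libraries, but the change of 0.47 ± 0.16 did not pass (edgeR adjusted p = 0.201, exact two-sided permutation p = 0.1, the smallest that 3 libraries against 3 allow).

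Among 31 tested genes of EGF and Ras signalling, 1 rose (3.23%, near the 1.97% of all genes tested) and none fell. That gene was Cbr-lin-3 (CBG05996), the EGF-like ligand, at 0.705, 0.261 and 0.755 CPM in AF16 and 2.09, 2.90 and 2.31 in gu167. Every gu167 library lay above every AF16 library, on 16 counts over the AF16 libraries. The rise was 4.34-fold (log2 2.12 ± 0.40, n = 3 per strain, edgeR adjusted p = 0.0221, exact two-sided permutation p = 0.1, the smallest possible). The call did not hold when AF16 replicate 2 was left out (adjusted p = 0.0609), nor when gu167 replicate 2 (0.102) or replicate 3 (0.0635) was, nor with only these strains in the fit (0.0698).

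The other EGF and Ras genes were not called. Cbr-let-23, the EGF receptor gene, was at 19.8, 19.6 and 22.4 CPM in AF16 and 18.4, 23.2 and 22.1 in gu167, and its log2 fold change was 0.04 (edgeR adjusted p = 0.922). The list's median was -0.01, close to that of all genes. The 30 uncalled members ran from -0.54 for Cbr-lin-31, a forkhead gene downstream of the MAP kinase in C. elegans, to 0.40 for Cbr-lin-25, which also acts at the end of the cascade. Whole larvae give no tissue for the rise of Cbr-lin-3.

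Genes that act with H2A.Z were not called in either direction. Of 19 tested members of the list for H2A.Z deposition, Tip60 and related remodellers, 0 rose and 0 fell by edgeR, with 1 higher at an unadjusted p under 0.05 and 0 by DESeq2. Of all genes tested 1.97% rose and 0.128% fell, so 0 calls in a list of 19 are not read further. The list includes the SWR1-type remodeller gene Cbr-ssl-1, at 138, 181 and 207 CPM in AF16 and 176, 184 and 170.0 in gu167, and the acetyltransferase gene Cbr-mys-1, with a log2 fold change of 0.02. The member with the largest change was Cbr-trr-1, a TRRAP homologue, at 172, 159.9 and 135 CPM in AF16 and 211, 233 and 239 in gu167. Its libraries did not overlap, yet its log2 fold change of 0.55 did not pass (edgeR adjusted p = 0.206).

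Most other lists of regulators held no call either. By edgeR, 0 of 30 SynMuv, DREAM and NuRD genes, 0 of 51 further chromatin modifier genes and 0 of 33 Wnt and vulval Hox genes were called, against 2.09% of all genes tested. At an unadjusted p under 0.05, 1 SynMuv gene was higher and 2 were lower, 7 chromatin modifiers were higher and 2 lower, and 2 Wnt genes were higher and 1 lower. Of all genes tested, 15% reached that level, so these counts are not read further. DESeq2 called 1 SynMuv gene higher and no gene of the other two lists. Of 28 Notch signalling genes, 1 rose by edgeR (3.57%, near the 1.97% of all genes tested). It was the receptor gene Cbr-glp-1 (CBG06809), which in C. elegans keeps germline stem cells dividing. Its level was 7.15, 8.08 and 7.43 CPM in AF16 and 13.4, 15.7 and 14.5 in gu167, with a clear gap between the strains. The log2 fold change was 0.94 ± 0.18 (edgeR adjusted p = 0.0234), a call lost without AF16 replicate 1 or 2, gu167 replicate 2 or 3, or gu163 replicate 3 (adjusted p up to 0.116).

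Among the 36 gene lists, the germline list held the most rises. Most called genes, 205 of 262, were in none of the lists, and 54 of the 246 rises were in one. Of 51 tested genes for germline RNA regulators, P granules and meiotic chromosomes, 20 rose (39.2%, against 1.97% of all genes tested) and none fell, and the list's median log2 fold change was 0.92. Of the 20, 15 were called in all 6 fits that left out 1 library, and the count was 16 to 20 in those fits. With AF16 replicate 3 and gu167 replicate 3 both left out it was 16. The test covered 51 of the 53 genes with a symbol in this list. A gene low in AF16 could enter it through its level in the mutants, so the share is a description.

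The meiotic chromosome genes were the most numerous among them. Cbr-syp-1 (CBG02434), a central component of the synaptonemal complex that joins homologous chromosomes, was at 0.705, 0.261 and 0 CPM in AF16 and 7.18, 8.94 and 8.14 in gu167. It rose 23.3-fold (log2 4.54 ± 0.53, edgeR adjusted p = 0.00109), from close to the floor of detection. Cbr-htp-3 (CBG04126), a HORMA-domain protein of the chromosome axis, rose from 3.73, 1.56 and 3.27 CPM to 15.9, 20.1 and 20.2 CPM, or 6.63-fold (log2 2.73 ± 0.29, adjusted p = 0.000678). The other axis and synapsis genes that rose were Cbr-syp-2 (log2 2.61), Cbr-syp-4 (2.90), Cbr-htp-2 (2.65) and Cbr-him-3 (2.05). Cbr-rec-8 and Cbr-coh-4, genes of the kleisin subunit of meiotic cohesin, rose by 3.23 and 1.88, and Cbr-him-14 and Cbr-msh-5, of a MutS pair needed for crossovers in C. elegans, by 2.76 and 2.499. Cbr-spo-11, of the enzyme that makes meiotic breaks, was at 0.907, 0.695 and 0.378 CPM in AF16 and 1.34, 4.28 and 5.22 in gu167, and did not pass (log2 2.40, adjusted p = 0.0759).

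RNA-binding regulators of the germline rose as well. Cbr-puf-8 (CBG13130), a Pumilio-family translational regulator, was at 2.01, 1.303 and 1.89 CPM in AF16 and 23.9, 19.5 and 24.2 in gu167. The 3 gu167 libraries were close together and far above AF16, a 13.02-fold rise (log2 3.70 ± 0.21, edgeR adjusted p = 1.66e-05). Cbr-gld-3 (CBG13073), a Bicaudal-C homologue that in C. elegans partners a cytoplasmic poly(A) polymerase, rose from 1.41, 1.13 and 2.39 CPM to 9.85, 10.1 and 9.44 CPM (log2 2.605 ± 0.27, adjusted p = 0.000535). Genes of zinc-finger proteins that oocytes and early embryos use to control maternal mRNA rose too, namely Cbr-mex-5 (4.38), Cbr-oma-2 (3.34), Cbr-mex-1 (2.92) and Cbr-pos-1 (2.84). These 4 were low in both strains, at no more than 8.44 CPM in any gu167 library.

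Abundant members of the same list did not move with them. Cbr-puf-12 had a log2 fold change of 0.13, Cbr-gld-2 of 0.04 and Cbr-cgh-1, a helicase gene of P granules and other RNA granules, of -0.53, and none passed. The summed level of the list was 1469.8, 1499 and 2112 CPM in AF16 and 1782, 1610.2 and 1558 in gu167, so the strains overlapped on that sum. Some members act outside the germline too, such as Cbr-him-4, a hemicentin gene, at a log2 fold change of -0.77 without a call.

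**Figure D2:**
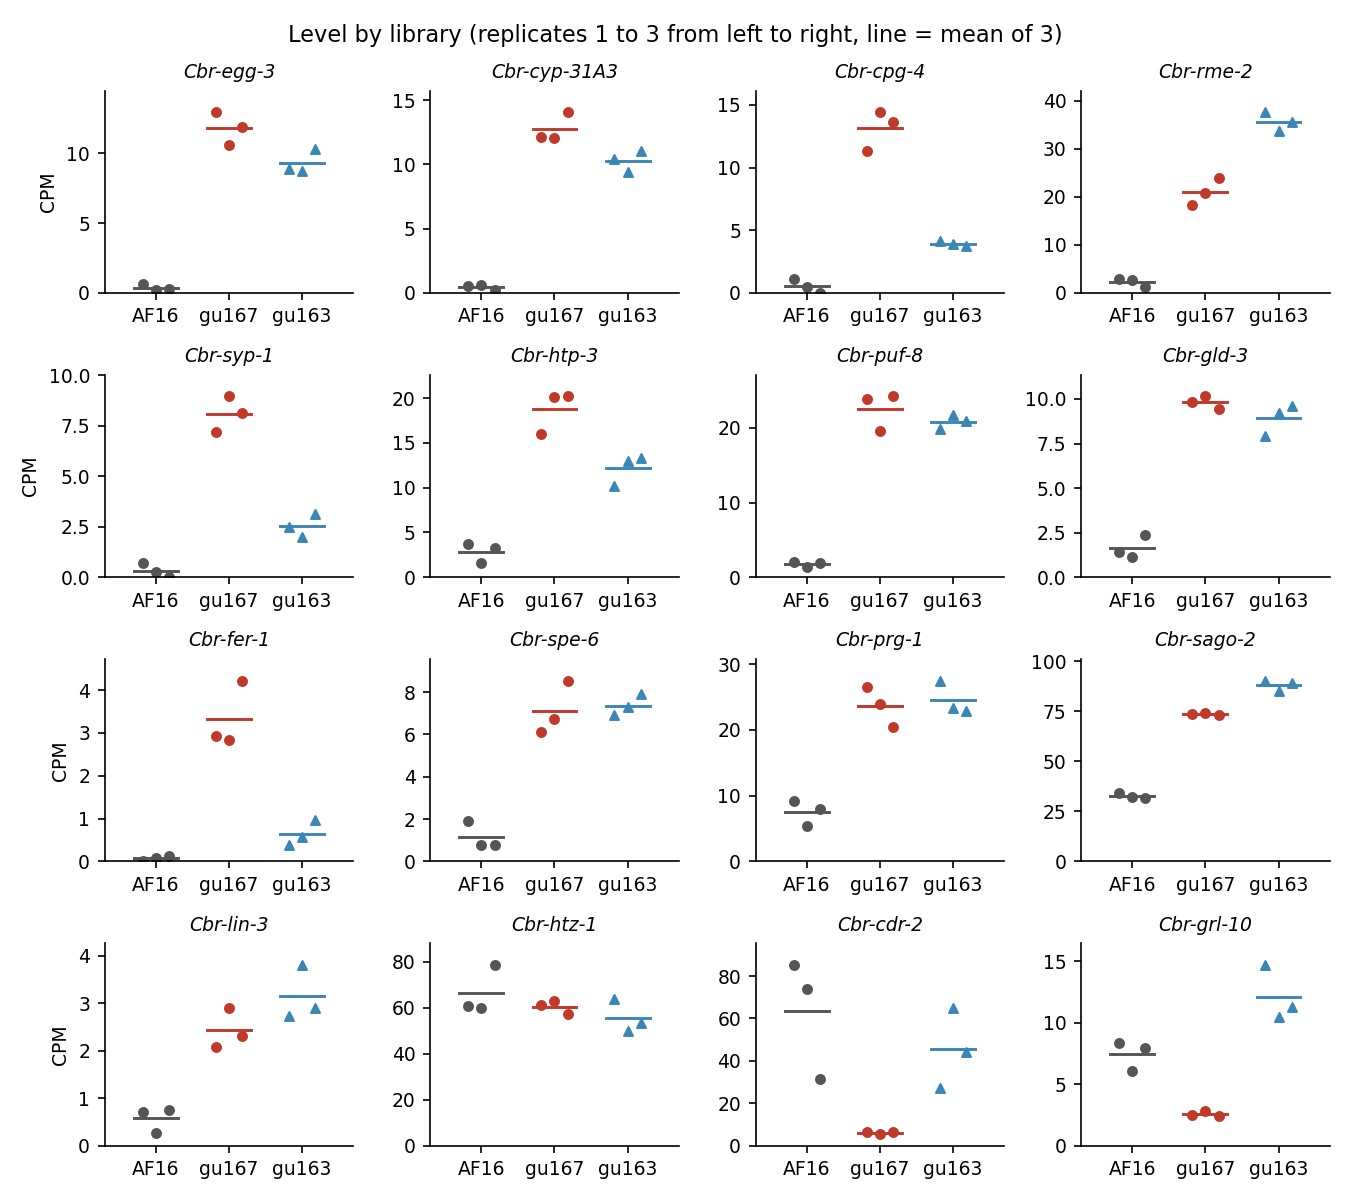
Each panel shows 1 gene, with CPM on the y axis from 0 and the strains AF16, gu167 and gu163 on the x axis. Points are single libraries, replicates 1 to 3 from left to right, and lines are means of 3. In 13 panels all gu167 libraries lie above all AF16 libraries, in those of Cbr-cdr-2 and Cbr-grl-10 they lie below, and in that of Cbr-htz-1 they overlap.

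Oocyte genes rose next to the meiotic genes. Of 29 tested genes for oocytes, eggshell and yolk, 7 rose (24.1%, against 1.97% of all genes) and none fell, with a median log2 fold change of 0.42, and 6 of the 7 were called in all 6 fits that left out 1 library. The list has 35 genes with a symbol. A gene low in AF16 could enter the test through its level in the mutants, so the share is a description. Cbr-egg-3 (CBG20647), of a pseudophosphatase that anchors egg activation proteins in C. elegans, was at 0.604, 0.174 and 0.252 CPM in AF16 and 12.9, 10.6 and 11.9 in gu167. It went from barely detected to a stable level in all 3 mutant libraries, a 33.4-fold rise (log2 5.06 ± 0.34, edgeR adjusted p = 4.25e-05).

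Genes with eggshell roles were among the 7. Cbr-cyp-31A3 (CBG01773), a cytochrome P450 needed for the lipid layer of the eggshell, was at 0.504, 0.608 and 0.252 CPM in AF16 and 12.1, 12.1 and 14.1 in gu167, a 26.4-fold rise (log2 4.72 ± 0.28, edgeR adjusted p = 1.66e-05). Cbr-cpg-4 (CBG09272), a chondroitin proteoglycan gene, rose from 1.11, 0.434 and 0 CPM to 11.4, 14.4 and 13.7 CPM (log2 4.58 ± 0.52, adjusted p = 0.000933). Cbr-rme-2 (CBG03794), of the receptor through which oocytes take up yolk, rose from 2.92, 2.78 and 1.26 CPM to 18.4, 20.8 and 23.9 CPM, or 8.84-fold (log2 3.14 ± 0.26, adjusted p = 0.000143). The remaining rises were Cbr-egg-4 (2.66), Cbr-cpg-1 (2.22) and Cbr-gna-2 (1.11), the last of a glucosamine enzyme that supplies eggshell chitin.

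None of the 3 tested yolk protein genes, which adults express in the intestine, was called. Summed over 5 vitellogenin genes the level was 46.8, 63.8 and 66.7 CPM in AF16 and 52.8, 12.8 and 356 in gu167. The gu167 libraries thus lay below, within and above the AF16 range, and replicate 3 was the high one. Cbr-vit-2, at 10.4, 1.197 and 96.3 CPM in gu167 and up to 3.15 CPM in AF16, was not called (log2 5.07 ± 1.58, edgeR adjusted p = 0.159). Cbr-vit-4, at 3.26, 0.378 and 37.0 CPM in gu167 and up to 3.02 CPM in AF16, also had a positive value without a call (log2 3.64 ± 1.497, adjusted p = 0.288), and Cbr-vit-6, which made up most of the sum, had one of 0.36 (adjusted p = 0.834). In all 3 genes the strains overlapped. In gu167 replicate 1, too, Cbr-vit-2 and Cbr-vit-4 lay above every AF16 library. Without gu167 replicate 3, 16 germline and 6 oocyte genes rose. The relation of the yolk gene level to those rises was not tested.

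Of 27 sperm genes with a symbol, only 9 were measured well enough to test, and 3 of those rose while none fell. Because a gene could enter the test through its level in the mutants, the share of 3 in 9 is not read further. Cbr-fer-1 (CBG14944), of a ferlin needed for membrane fusion in maturing sperm, had 2 counts over the AF16 libraries and 122 over the gu167 libraries. The ratio of CPM-scaled counts was 47.4, with an exact 95% interval of 12.8 to 396 that covers counting error only (edgeR adjusted p = 0.000933). Cbr-spe-6 (CBG13273), of a casein kinase-like sperm protein, was at 1.91, 0.782 and 0.755 CPM in AF16 and 6.09, 6.74 and 8.54 in gu167 (log2 2.61 ± 0.34, adjusted p = 0.00239).

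The third was Cbr-snf-10 (CBG09609), of a transporter-like protein of sperm activation, at 0, 0.261 and 0.126 CPM in AF16 and 1.42, 2.20 and 3.32 in gu167 (log2 3.98 ± 0.67, edgeR adjusted p = 0.0110). Its call was lost when AF16 replicate 3 and gu167 replicate 3 were both left out (0.0710). The summed level of 14 spe genes was 34.6 to 43.2 CPM in AF16 and 43.3 to 50.5 CPM in gu167, and the 1 matched gene of a major sperm protein domain, Cbr-msd-3, stayed at or under 1.71 CPM in all 6 libraries.

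Of 30 tested small RNA pathway genes 4 rose (13.3%, against 1.97%) and none fell, and 3 were called in all 6 fits. At an unadjusted p under 0.05, 9 were higher and 0 lower, and the median log2 fold change was 0.16. Of all 12507 genes tested, 1016 were higher and 859 lower at that level. Cbr-sago-2 (CBG12094), an Argonaute gene of the secondary siRNA pathway, was at 34.5, 32.4 and 31.6 CPM in AF16 and 73.8, 74.4 and 73.0 in gu167. Both strains were tight, and the 2.25-fold rise was among the best supported (log2 1.17 ± 0.11, edgeR adjusted p = 0.000339). Cbr-prg-1 (CBG11957), the Piwi Argonaute that binds piRNAs, rose from 9.17, 5.39 and 7.93 CPM to 26.5, 23.9 and 20.4 CPM (log2 1.66 ± 0.21, adjusted p = 0.00204).

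Cbr-mut-2 (CBG12597), of a nucleotidyltransferase that marks RNA for amplification, was at 0.403, 1.303 and 0.629 CPM in AF16 and 5.18, 9.01 and 7.84 in gu167, a 9.05-fold rise (log2 3.18 ± 0.40, edgeR adjusted p = 0.00193). The fourth gene, Cbr-ego-1, of a germline RNA-directed RNA polymerase, rose by 1.34, a call that held in 1 of the 6 fits. The summed level of the 30 genes was 1139.9 to 1193 CPM in AF16 and 1257 to 1340.3 CPM in gu167, without overlap.

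Replication and cell cycle genes gave weaker calls. Of 74 tested members 4 rose (5.41%, against 1.97% of all genes tested) and none fell, with a median of 0.15. The members called were Cbr-orc-3 (CBG15148), an origin recognition subunit at 12.1, 11.8 and 10.95 CPM in AF16 and 19.8, 19.5 and 18.99 in gu167, Cbr-hcp-6, Cbr-cdc-25.1 and Cbr-cdk-2. Their log2 fold changes were 0.74 ± 0.15, 0.90 ± 0.18, 1.44 ± 0.30 and 0.99 (edgeR adjusted p = 0.0288, 0.0301, 0.0374 and 0.0426). None of the 4 was called in all 6 fits. The count of 4 was 2 without AF16 replicate 1, 1 without AF16 replicate 2 or gu167 replicate 1, and 0 without gu167 replicate 2 or 3. Without gu163 replicates 2 and 3 it was 2 and 0, and DESeq2 called 10.

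**Figure D3:**
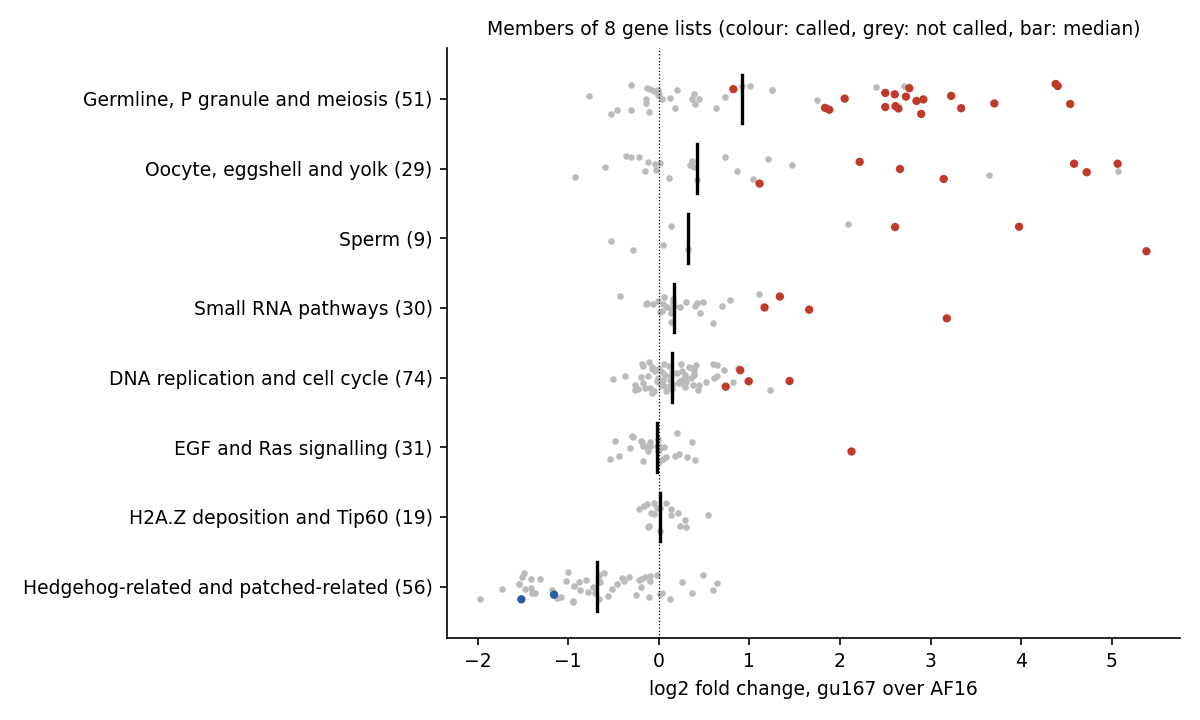
Each point is 1 tested member of a gene list, placed by its log2 fold change, gu167 over AF16, with the number of members in parentheses. Coloured points passed at an adjusted p under 0.05, grey points did not, and black bars are medians, from 0.92 in the germline list to -0.69 in the hedgehog-related and patched-related list.

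Outside the germline lists, large rises were found in single genes. Cbr-duo-2 (CBG02214) was at 1.21, 1.04 and 0.755 CPM in AF16 and 19.5, 24.8 and 24.0 in gu167, 22.2-fold higher (log2 4.47 ± 0.24, edgeR adjusted p = 1.02e-05). Cbr-mat-3 (CBG12598), of an anaphase-promoting complex subunit, rose 7.03-fold from 2.32, 1.82 and 2.27 CPM to 14.4, 14.05 and 16.6 CPM. Cbr-vha-18 (CBG11248), named for a vacuolar ATPase subunit, rose 9.57-fold from 1.01, 0.782 and 1.01 CPM to 7.60, 9.95 and 9.24 CPM. The 3 genes were called in all 6 fits.

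Most called genes had no symbol, 161 of 262. The largest well-measured rises among them were CBG02852, with 2 counts over the AF16 libraries and 266 over the gu167 libraries, and CBG08228, at 0.302, 0.174 and 0.378 CPM in AF16 and 18.9, 20.97 and 20.3 in gu167. The ratio for CBG02852 was 103 (exact 95% interval 28.3 to 858), and CBG08228 rose by log2 6.14 (edgeR adjusted p = 1.02e-05). CBG04124 had no count in any AF16 library and 19, 39 and 22 in the gu167 libraries, at least 20.7-fold higher against a floor of 3 counts over the AF16 group. No function is assigned to these identifiers in the sources used here.

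A few rises fell in the lists for respiration, immunity and detoxification. Of 36 respiratory chain genes, Cbr-nduf-2.2 (CBG19683), of complex I, rose from 11.99, 11.1 and 16.1 CPM to 37.9, 32.8 and 29.3 CPM (log2 1.36 ± 0.19, edgeR adjusted p = 0.00410), and Cbr-sdha-2, of complex II, rose by 0.94 ± 0.20 (adjusted p = 0.0426). Those 2 rises were 5.56% of the list, against 1.97% of all genes tested. The list's median was -0.30, with 5 of the 36 members above 0 and 3 higher and 2 lower at an unadjusted p under 0.05. The call of Cbr-sdha-2 was lost in 5 of the 6 fits, all but that without AF16 replicate 3, and the count of 2 was 1 in those fits and without gu163 replicate 2 or 3.

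Of 68 innate immunity genes 4 rose (5.88%, against 1.97% of all genes tested), and 1 was called in all 6 fits, Cbr-hpo-32 (CBG12338), named for hypersensitivity to pore-forming toxin in C. elegans, at 1.91, 1.82 and 1.76 CPM in AF16 and 6.09, 5.48 and 6.43 in gu167. It rose by 1.70 ± 0.20 (edgeR adjusted p = 0.00119). Cbr-zip-2, of a bZIP factor of the infection response, rose by 0.79 ± 0.15 (0.0190), and Cbr-hpo-40 by 1.36 ± 0.28 (0.0312). Without AF16 replicate 1 or 3 or gu163 replicate 3 the 4 became 2 (with 2 falls without AF16 replicate 3), and without any 1 of the gu167 libraries 1. Of 119 genes for cytochrome P450s, conjugating enzymes and ABC transporters 4 rose (3.36%, near the 1.97% of all genes), among them Cbr-ugt-63 (1.47 ± 0.23, adjusted p = 0.00782) and Cbr-cyp-44A1 (0.64 ± 0.13, 0.0355, lost in 6 of 6 fits), as well as the eggshell gene Cbr-cyp-31A3. They became 2 without AF16 replicate 1 or 2, gu167 replicate 1 or 3, or gu163 replicate 2 or 3, and without AF16 replicate 3 there were 3 rises and 4 falls.

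The edgeR fit of all libraries called 16 falls in gu167. That count was 225 by DESeq2, 145 without AF16 replicate 3 and 2 without gu167 replicate 3. Cbr-cdr-2 (CBG23483), of a family named for its response to cadmium in C. elegans, was at 85.2, 74.0 and 31.5 CPM in AF16 and 6.51, 5.29 and 6.63 in gu167. Even AF16 replicate 3, the lowest of its strain, lay well above all gu167 libraries. The fall was 3.38 on the log2 scale (-3.38 ± 0.41, edgeR adjusted p = 0.00139), and the change lay between -3.70 and -3.11 in the fits that left out 1 AF16 or gu167 library.

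The other fall that held in every such fit came from the hedgehog-related genes. C. elegans and its relatives lack a canonical Hedgehog ligand but carry many secreted hedgehog-related proteins (the wrt, grd, grl and qua families) and patched-related membrane proteins (the ptr and ptc families), several of which act in the epidermis and its cuticle. Cbr-grl-10 (CBG20585) was at 8.36, 6.08 and 7.93 CPM in AF16 and 2.504, 2.83 and 2.41 in gu167 (log2 -1.52 ± 0.23, edgeR adjusted p = 0.00566). Cbr-ptr-1 (CBG19221), patched-related, was at 141, 77.6 and 95.2 CPM in AF16 and 43.5, 56.6 and 40.5 in gu167 (-1.15 ± 0.24, adjusted p = 0.0368). Its call was lost without AF16 replicate 1, any 1 gu167 library or gu163 replicate 3 (adjusted p up to 0.180).

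The rest of that list leaned the same way without passing. Of 56 tested members 2 fell (3.57%, against 0.128% of all genes) and none rose. The median log2 fold change was -0.69, and 26 members were lower and 0 higher at an unadjusted p under 0.05. Of all 12507 genes tested, 859 were lower and 1016 higher at that level. Cbr-grl-7 stood at 301, 114 and 223 CPM in AF16 and 63.5, 73.3 and 25.8 in gu167, without overlap, and did not pass (log2 -1.97, edgeR adjusted p = 0.0683). The count of falls was 17 by DESeq2, 7 without AF16 replicate 2 or 3, 3 without gu163 replicate 1, and 1 without AF16 replicate 1, any 1 gu167 library or gu163 replicate 3.

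Neighbouring cuticle lists moved less clearly. Of 65 molting and cuticle processing genes 0 were called by edgeR, with 20 lower and 1 higher at an unadjusted p under 0.05, a median of -0.41, and 7 lower and 1 higher by DESeq2. Without AF16 replicate 3, 5 molting genes fell. Of 119 cuticle collagens 1 rose, Cbr-col-83 (log2 2.09), and none fell, with a median of -0.35 and 29 lower and 11 higher at an unadjusted p under 0.05. DESeq2 called 12 collagens lower and 7 higher, and without AF16 replicate 3 edgeR called 3 lower and 1 higher. Cbr-col-83 was called in 4 of the 6 fits that each left out 1 library of these strains.

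Several large lists of general cell function had medians below 0 with no call. The median was -0.52 for 76 cytosolic ribosomal protein genes, -0.37 for 32 proteasome genes and -0.31 for 51 muscle genes, and by edgeR 0 members of each were called. At an unadjusted p under 0.05, 2, 8 and 2 of them were lower and 0, 0 and 1 higher, and DESeq2 called 0, 1 and 0 lower and none higher. The ribosomal list deviated from the mean of all libraries by -0.06, 0.20 and 0.83 (log2) in AF16 and by 0.17, -0.18 and -0.44 in gu167, so the highest value was that of AF16 replicate 3 and the lowest that of gu167 replicate 3. Without AF16 replicate 3 its median was -0.22.

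**Figure D4:**
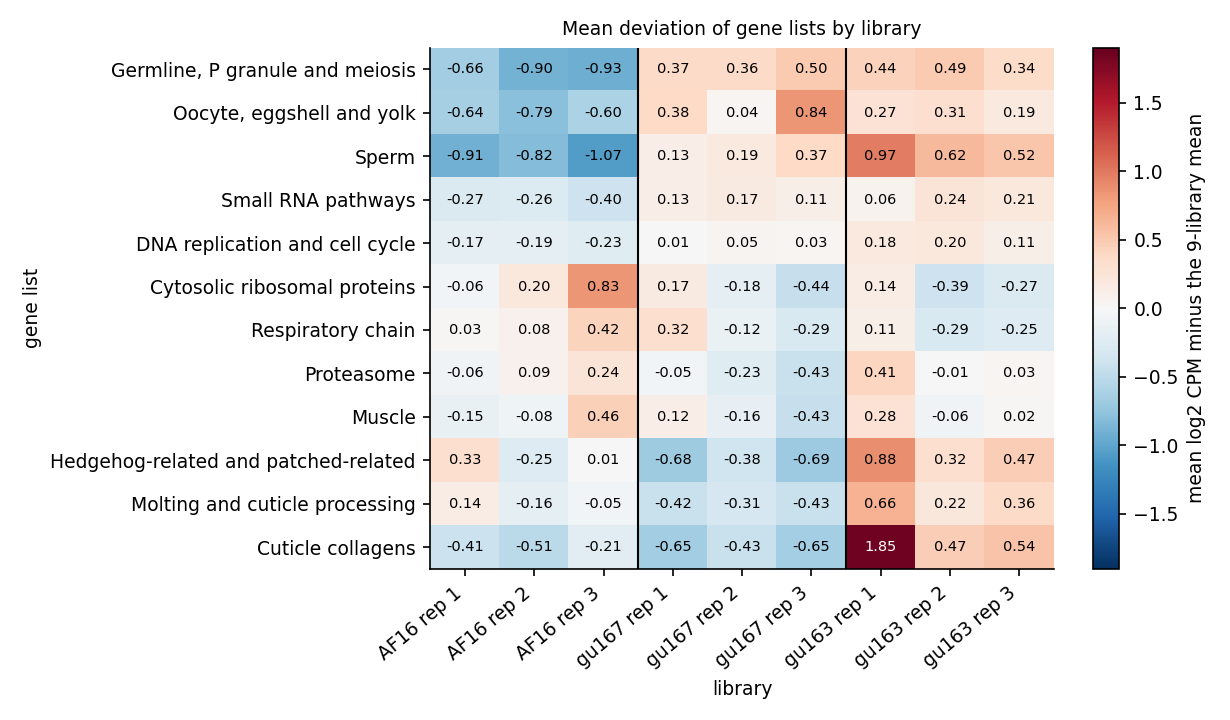
Each cell gives the mean log2 CPM of a gene list (rows) in 1 library (columns) minus the mean of all 9 libraries, red above and blue below. The germline list is between -0.93 and -0.66 in AF16 and between 0.36 and 0.50 in gu167, while the ribosomal list is at 0.83 in AF16 replicate 3.

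The gu163 libraries allowed a direct test of which changes differ between the mutants. AF16 is shared by both comparisons with the wild type, so their values are set side by side and only the direct contrast is tested. Between the mutants edgeR called 1683 genes (13.5%), 641 higher in gu167 (5.13%) and 1042 lower (8.33%). The total was 1082, 758 and 757 without gu167 replicates 1, 2 and 3, and 710 and 883 without gu163 replicates 1 and 3. In fits without 1 library, 190 to 984 genes were higher and 471 to 1504 lower in gu167, with both upper ends reached without AF16 replicate 3. Of the 246 genes that rose in gu167, 44 were also higher in gu167 than in gu163 and 14 were lower. Of the 16 that fell, 13 were lower in gu167 than in gu163. Genes called against AF16 were chosen on the same gu167 libraries that enter the direct contrast, which favours a difference in the same direction, so these counts and the direct values of such genes are descriptions.

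Most germline genes, like most genes tested, were not told apart between the mutants. Of the 51, 2 were higher and 2 lower in gu167 than in gu163, against 5.13% and 8.33% of all genes tested. The median difference was -0.01, over a list that includes members that did not rise in gu167. The difference was 0.11 ± 0.17 for Cbr-puf-8 (edgeR adjusted p = 0.727), 0.34 ± 0.24 for Cbr-egg-3 (0.390) and -0.37 ± 0.33 for Cbr-lin-3 (0.502). A few were further up in gu167. Cbr-cpg-4 stood at 4.17, 3.89 and 3.70 CPM in gu163, 1.75 ± 0.41 below gu167 on the log2 scale (adjusted p = 0.0206), and Cbr-syp-1 at 2.47, 1.99 and 3.14 CPM, 1.67 ± 0.40 below (0.0238). Cbr-fer-1 at 0.391, 0.580 and 0.967 CPM was 2.28 ± 0.42 below (0.00865).

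Cbr-rme-2, in contrast, was higher in gu163 at 37.6, 33.7 and 35.5 CPM (gu167 minus gu163 -0.76 ± 0.22, edgeR adjusted p = 0.0457). Among the largest differences downward, Cbr-clec-147 (CBG20873), a C-type lectin gene, was at 0.403, 0.521 and 0.126 CPM in AF16, 7.43, 5.04 and 3.52 in gu167 and 50.4, 53.6 and 31.7 in gu163 (-3.08 ± 0.32, adjusted p = 0.000656). It rose in gu167 by 3.81 (adjusted p = 0.00135) and lay higher still in gu163. Cbr-hpo-32 at 13.3 to 14.98 CPM in gu163 was likewise above gu167 (-1.21 ± 0.18, adjusted p = 0.00413).

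Both genes that fell in all 6 fits also differed from gu163. Cbr-cdr-2 was at 27.3, 64.9 and 43.98 CPM in gu163, overlapping AF16, and lower in gu167 by the direct test (-2.89 ± 0.41, edgeR adjusted p = 0.00338). Cbr-grl-10 was at 14.7, 10.4 and 11.3 CPM in gu163 (-2.22 ± 0.23, adjusted p = 0.000656). Cbr-smg-2 (CBG08494), of the helicase of nonsense-mediated mRNA decay, was at 72.5, 86.4 and 108 CPM in AF16, 178, 152 and 136 in gu167 and 80.1, 71.1 and 77.0 in gu163. It was higher in gu167 than in gu163 (1.03 ± 0.17, adjusted p = 0.00674) and than in AF16 (0.81 ± 0.17, adjusted p = 0.0406, lost in 5 of 6 fits).

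Cbr-ttr-27 (CBG09508), of the transthyretin-like family, was at 3.02, 3.82 and 2.64 CPM in AF16, 6.26, 8.69 and 11.2 in gu167 and 2.08, 3.40 and 3.30 in gu163. It was above gu163 by 1.55 ± 0.29 (edgeR adjusted p = 0.00972) and above AF16 by 1.44 (adjusted p = 0.0321, lost in 5 of 6 fits).

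Epidermal lists separated the mutants. Of the 56 hedgehog-related and patched-related genes 29 were lower in gu167 than in gu163 (background 8.33%) and 3 were higher, and of the 119 collagens 42 were lower and 3 higher. Of the 65 molting genes 24 were lower and 2 higher. The list medians against AF16 were -0.69, -0.35 and -0.41 in gu167 and 0.35, 0.80 and 0.28 in gu163, medians that carry no test of their own. The counts depend on single libraries. The 29 became 19 and 18 without gu167 replicates 2 and 3 and 18 without gu163 replicate 1. The 42 became 25 without gu167 replicate 3 and 26 without gu163 replicate 1, and the 24 became 9, 8, 10 and 10 without gu167 replicates 2 and 3 and gu163 replicates 1 and 3.

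Of 62 mitochondrial ribosomal protein genes 43 were higher in gu167 than in gu163 (background 5.13%) and none lower. Against AF16 their median was 0.03 in gu167 and -0.63 in gu163, with 0 called in gu167 by edgeR and by DESeq2 and 1 higher at an unadjusted p under 0.05. The 43 became 17 and 22 without gu167 replicates 1 and 2, and 19, 24 and 18 without gu163 replicates 1, 2 and 3.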

How the data were processed

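The authors deposited unnormalized whole-number counts of reads per gene for each library. The series table and the 9 single-library files agreed in every count. Per the submitters' processing notes, the tools were STAR, DESeq, FastQC and Trim Galore, with no version stated. An FDR is printed for the DESeq calls, and no role is stated for the other tools. For genome build, annotation, counter and strandedness, values were not given in the sources used here. Since the strand setting is unknown, reads of overlapping or antisense genes cannot be told apart. How reads of near-identical family members were assigned is not known either. Locus tags were looked up in a RefSeq gene table of assembly CB4 (22727 of 22922 identifiers, 195 unmatched), used only for names and neighbours.

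Counts of all 9 libraries entered 1 edgeR 4.0.16 fit (R 4.3.3) with 3 groups, TMM scaling, the expression filter at a minimum count of 10 and robust quasi-likelihood F tests. P-values were adjusted by Benjamini-Hochberg over 12507 genes, and adjusted p under 0.05 was called. The labels print the submitters' FDR as 0.05%, so 0.0005 was run as an alternative. SEs come from the F statistic. Ratios of low counts have exact 95% intervals for counting error only. Alternatives were DESeq2 1.42.0, limma-voom (limma 3.58.1), other scalings and filters, fewer libraries and a replicate block. The steps were tested on simulated counts.

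The members of the comparison and the 36 gene lists, matched by name patterns of C. elegans genes, were chosen with earlier results of these data known. The genes named were Cbr-htz-1, Cbr-spr-4 and Cbr-lin-3; the largest rises and falls with at least 5 CPM, no overlap and a call in all 6 fits that left out 1 AF16 or gu167 library; the called members with the smallest adjusted p of lists with at least 2 calls; called members of the signalling and chromatin lists; the largest direct differences from gu163; the smallest adjusted p; and genes without counts in 1 strain. Further members of a described list were chosen after their values were seen. Pairs of replicates differed by more than sampling noise (chi-square per degree of freedom 18.6 to 81.8), so none was treated as a copy. Same-numbered AF16 and gu167 libraries were not treated as pairs. The correlations of their deviations were -0.28, -0.07 and -0.24, which cannot exclude that they were handled together.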

Additional observations from a re-analysis of the deposited data

How the results depend on the processing

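The 262 calls in gu167 against AF16 were 636 by DESeq2 (411 higher, 225 lower), 169 with only these strains in the fit (162 and 7), 42 at an adjusted p under 0.0005 (42 and 0), and 152 to 367 in fits without 1 library (148 to 238 higher, 2 to 145 lower). Without AF16 replicate 3 and gu167 replicate 3 together there were 155 higher and 69 lower. Genes lower in gu167 numbered 10 by limma-voom and 34 with no filter on low counts. The replicate block gave 173 calls (160 higher). Whether libraries with the same replicate number were handled together is not known here. DESeq2 called 261 of the 262 genes and limma-voom 228. Against gu163, 25 genes were called at 0.0005 (1 higher, 24 lower) and 710 to 2488 without 1 library (190 to 984 higher, 471 to 1504 lower). Cbr-lin-3 kept its direction in every alternative, with log2 1.72 to 2.35 in fits without 1 library. Its call was lost in the fit of these strains alone (2.12), at 0.0005 (2.12), under the replicate block (2.10, adjusted p = 0.0740) and without AF16 replicate 3 and gu167 replicate 3 (2.39, adjusted p = 0.0599). Cbr-htz-1 changed sign without these libraries together (0.041) and without AF16 replicate 3 (0.0014), lay between -0.22 and 0.0014 in fits without 1 library, and passed in no alternative. Among 40 named genes, limma-voom lost Cbr-hpo-40 and Cbr-sdha-2, RLE scaling lost Cbr-smg-2, the unfiltered fit lost Cbr-cyp-44A1 and Cbr-orc-3, and DESeq2 lost none. The fit of these strains alone lost 12 of the 40, the replicate block 11, the fit lacking replicate 3 of both strains 12, and 0.0005 lost 28. Fits without 1 library lost 2 to 12. The causes were not tested. Depth limits genes near 3 counts, which is where many AF16 values lay.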

Other observations

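Some genes that rose in gu167 lay beside each other in the CB4 gene order. Both genes rose in 52 of the 8719 neighbouring pairs in which both were tested, and 89 of the 246 rising genes had a rising neighbour. Of the 393 tested neighbours of rising genes 26.5% rose, against 1.97% of all genes tested. The pairs included the gap junction genes Cbr-inx-22 and Cbr-inx-21, Cbr-puf-11 and Cbr-cyp-31A3, Cbr-mex-5 and Cbr-rec-8, Cbr-mut-2 and Cbr-mat-3, Cbr-pos-1 and Cbr-vha-18, and the run CBG04124, CBG04125 and Cbr-htp-3. Reads shared by overlapping genes, transcripts from 1 operon and nearby paralogs were not separated.

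The families that follow were chosen after their values were seen. Of the innexin genes tested, only Cbr-inx-21 and Cbr-inx-22 were called. Cbr-inx-21 rose from 1.71, 1.998 and 0.755 CPM in AF16 to 12.8, 13.1 and 15.98 CPM in gu167 (log2 3.18 ± 0.30, edgeR adjusted p = 0.000291), and Cbr-inx-22 rose by 3.11 ± 0.30 (0.000327). In C. elegans these genes encode innexins of the oocyte junction with the gonad sheath. Cbr-inx-14 stood at 17.2, 17.6 and 13.6 CPM in AF16 and 16.9, 16.9 and 17.9 in gu167 (log2 0.09, edgeR adjusted p = 0.813). The log2 fold changes of the uncalled innexin genes ran from -0.77 for Cbr-inx-20 to 0.74 for Cbr-inx-2. Of all genes tested, 1.97% rose.

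Of the cdr family, Cbr-cdr-2 fell, whereas Cbr-cdr-6.2 was at 81.9, 77.2 and 46.4 CPM in AF16 and 78.4, 59.2 and 68.1 in gu167 (log2 -0.001, edgeR adjusted p = 0.998). Among the smg genes of nonsense-mediated decay, the kinase gene Cbr-smg-1 was at 111, 105 and 91.3 CPM in AF16 and 213, 200.5 and 199 in gu167. It rose by 0.995 ± 0.14 (edgeR adjusted p = 0.00401), was called in all 6 fits and was higher than in gu163 (0.80, adjusted p = 0.00796). Cbr-smg-2 rose as well, a call lost in 5 of the 6 fits. Cbr-smg-3, at 61.5, 59.2 and 46.6 CPM in AF16 and 72.9, 76.8 and 82.9 in gu167, did not overlap but did not pass (log2 0.47, adjusted p = 0.165), and Cbr-smg-5 had a value of 0.69 (adjusted p = 0.272). Cbr-smg-6 was at 51.9 to 63.2 CPM in AF16 and 55.3 to 64.4 CPM in gu167, and Cbr-smg-7 had a log2 fold change of -1.14 ± 0.41 (adjusted p = 0.224). For Cbr-smg-8 and Cbr-smg-9 the log2 fold changes were 0.13 and 0.19 (edgeR adjusted p = 0.707 and 0.619).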
